A study of Mus musculus with 12 samples.

Results

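Genes of ion and water transport in the lung were followed in whole-lung RNA of C57BL6/J mice on a combined regimen of L-NAME and fat-rich food. The set holds 9 genes, chosen by name for their part in alveolar and airway fluid balance and found by symbol among the 23127 genes of the deposited table. They are Slc26a4, Cftr, the sodium channel subunits Scnn1a, Scnn1b and Scnn1g, Atp1b1, Slc12a2, Aqp1 and Slc6a20a. The choice was made with earlier results of these data known, so the members' own levels and differences are given as a description, without a test. By its title, the study concerns IL-1β from myeloid cells and pulmonary vessels in heart failure with preserved ejection fraction.

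Each group held 4 mice with 1 library each, profiled at 0 weeks (controls), or after 2 or 5 weeks on the combined regimen. L-NAME, an inhibitor of nitric oxide synthases, was supplied in the drinking water at 0.5 g/L, and the diet contained 60% lipid. The lungs were flash frozen. The labels of these libraries give no age, sex or control diet. Both agents were given together and no untreated group was taken at 2 or 5 weeks, so L-NAME, diet and time on study cannot be told apart. Values are CPM, in which the reads assigned to genes are scaled to the same total in every library. The most frequent of the low values above 0, taken as 1 read, put the depth at 26000000 to 34100000 assigned reads a library. On principal components of all tested genes, 2-week replicate 3, 5-week replicate 3 and control replicate 2 stood apart, and the larger differences are also given without these 3 libraries.

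In airways and alveoli, sodium enters epithelial cells through the epithelial sodium channel on the side facing the air and is pumped out on the blood side by the sodium-potassium pump, and water follows. In the airways, chloride and bicarbonate can move the other way through the channel CFTR and through anion exchangers, fed by chloride cotransport from the blood side. The balance of these fluxes sets the depth of the liquid that lines the airway and the removal of fluid from the airspace, and it is well known for clearing the lung of liquid at birth and in pulmonary oedema.

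The anion exchanger gene Slc26a4 was lower and the sodium-coupled carrier gene Slc6a20a higher in every treated mouse than in every control, at both times. The mean of Slc26a4 stood at 0.428 times the control mean after 2 weeks and 0.480 times after 5 weeks. That of Slc6a20a stood at 1.30 times the control mean after 2 weeks and 1.75 times after 5 weeks. The other 7 members lay closer to the controls, with ratios of means between 0.784 and 1.22. Of these, Cftr was below every control at 2 weeks and Atp1b1 below every control at 5 weeks.

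**Figure D1:**
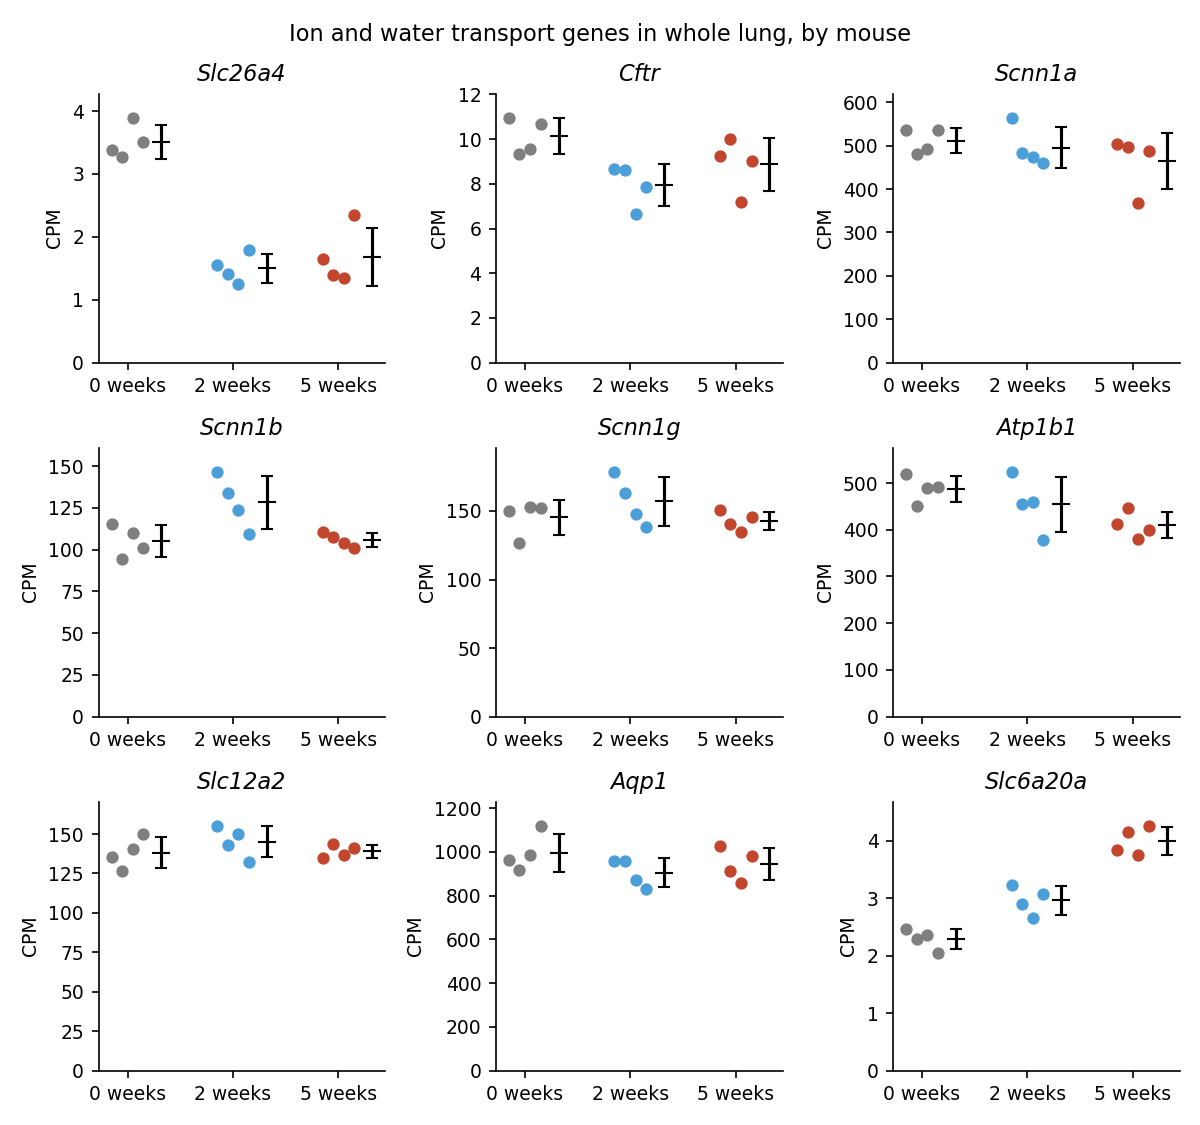
CPM of the 9 genes in each of the 12 mice, on linear axes from 0, at 0, 2 and 5 weeks; each point is a mouse, and the bar beside the points is the mean with its SD. The 4 controls for Slc26a4 lie between 3.28 and 3.89 CPM, above all 8 treated mice.

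All 9 members were among the 15562 genes tested, those averaging 1 CPM or more across the libraries. In the fit across all these genes with limma, 0 genes passed an adjusted p of 0.05 in any of the 3 comparisons (0% of genes, and 0 of 9 members). An unadjusted p under 0.05 was reached by 1438 genes when 2-week mice were set against controls, by 1343 when 5-week mice were, and by 1696 in the comparison of 5-week with 2-week mice. Groups without overlap were found for 3 of 9 members at 2 weeks, where 5.32% of all tested genes were of this kind. Of these members 1 was higher, as 3.37% of all genes were, and 2 were lower, as 1.95% were. At 5 weeks 3 of 9 did not overlap with the controls, against 5.01% of all genes, with 1 higher (3.65% of all genes) and 2 lower (1.36%). Between 5 and 2 weeks 1 of 9 did not overlap, against 4.94% of all genes, and it was higher (2.38%). Being below the controls at both times was seen in 0.418% of all tested genes, and being above them at both times in 0.662%. Since the members were picked with such results known, nothing is read from their shares.

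Slc26a4 (ENSMUSG00000020651) encodes pendrin, which exchanges chloride for bicarbonate and other anions at the outer face of epithelia and is best known from the inner ear, thyroid and kidney. The deposited table places it on the minus strand of chromosome 12, from 31569826 to 31609968. It measured 3.38, 3.28, 3.89 and 3.50 CPM in the 4 controls. After 2 weeks it measured 1.56, 1.41, 1.25 and 1.79 CPM, and after 5 weeks 1.65, 1.40, 1.34 and 2.34 CPM. The lowest control was thus above the highest treated mouse, which was 5-week replicate 4, while the 2-week and 5-week mice overlapped. In bulk tissue, fewer expressing cells and less RNA per cell cannot be told apart.

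The mean of Slc26a4 was 1.503 ± 0.231 CPM in 2-week mice and 3.51 ± 0.269 CPM in controls (SD, n = 4 each). On the log2(CPM + 1) scale the 2-week difference was -0.85 ± 0.14 (SE, 95% interval -1.15 to -0.56). After 5 weeks the mean was 1.68 ± 0.459 CPM (SD, n = 4), and the difference from the controls was -0.76 ± 0.14 (SE, 95% interval -1.06 to -0.46). Between 5 and 2 weeks it was 0.09 ± 0.14, with an interval from -0.21 to 0.39. At this low level the added 1 compresses the fold: with a pseudocount of 0.1 the differences from the controls were -1.18 at 2 weeks and -1.05 at 5 weeks, and with 5 they were -0.39 and -0.35. The CPM correspond to between 39 and 80 reads in treated libraries and between 86 and 111 reads in controls. Without the 3 libraries that stood apart the differences were -0.83 and -0.73.

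Slc6a20a (ENSMUSG00000036814) encodes a carrier that takes up proline and related amino acids together with sodium and chloride. It lies on the minus strand of chromosome 9, from 123463835 to 123507950 in the deposited table. The controls measured 2.46, 2.29, 2.36 and 2.05 CPM. The 2-week mice measured 3.23, 2.90, 2.66 and 3.08 CPM, and the 5-week mice 3.84, 4.16, 3.75 and 4.26 CPM. The 3 groups did not overlap with one another, and their order followed time on study.

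For Slc6a20a the mean was 2.97 ± 0.248 CPM in 2-week mice and 2.29 ± 0.175 CPM in controls (SD, n = 4 each), a log2 difference of 0.27 ± 0.10 (SE, 95% interval 0.04 to 0.49). It was 4.002 ± 0.247 CPM in 5-week mice (SD, n = 4), 0.60 ± 0.10 above the controls on the log2 scale (SE, 95% interval 0.38 to 0.83) and 0.34 ± 0.10 above the 2-week mice (0.11 to 0.56). These levels correspond to between 60 and 145 reads per library. Without the 3 libraries that stood apart the differences from the controls were 0.31 and 0.63. With a pseudocount of 5 they were 0.13 at 2 weeks and 0.30 at 5 weeks. The highest values under any setting tried were 0.36 at 2 weeks and 0.78 at 5 weeks. Its close copy Slc6a20b averaged 0.290 CPM over the 12 libraries, under the filter, and the counting is not stated to separate such copies, so the split between them is uncertain.

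Since the groups of Slc26a4 and Slc6a20a lay apart from the controls at both times, their promoters are shown, from 250 bases before to 50 after the RefSeq start in GRCm38.p6, 5′ to 3′ on the strand of the gene. Capitals mark a TATA box.
Slc26a4, chr12:31559935-31560234, minus strand: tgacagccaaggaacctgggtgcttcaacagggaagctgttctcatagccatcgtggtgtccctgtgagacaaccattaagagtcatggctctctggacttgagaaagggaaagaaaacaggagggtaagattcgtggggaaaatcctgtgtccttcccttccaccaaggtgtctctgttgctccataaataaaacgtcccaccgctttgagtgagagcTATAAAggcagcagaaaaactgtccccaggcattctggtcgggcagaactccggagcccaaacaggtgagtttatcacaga
Slc6a20a, chr9:123678783-123679082, minus strand: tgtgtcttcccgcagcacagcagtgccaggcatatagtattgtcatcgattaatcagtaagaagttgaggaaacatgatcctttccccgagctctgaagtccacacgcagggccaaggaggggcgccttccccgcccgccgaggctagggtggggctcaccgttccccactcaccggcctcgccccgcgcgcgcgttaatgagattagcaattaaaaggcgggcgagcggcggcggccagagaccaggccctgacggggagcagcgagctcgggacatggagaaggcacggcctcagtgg

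The Slc26a4 promoter held TATAAA on the gene's strand, 31 to 26 bases before the start, as 13.6% of the 32851 promoters in the RefSeq table did on either strand. No match was found in either window to ACANNNTGT, the core of the glucocorticoid receptor palindrome, which 6.85% of promoters held. Nor was there one to the forkhead core GTAAACA, held by 3.65% of promoters, or to the cyclic AMP response element TGACGTCA, held by 1.79%. Both strands were searched, and none of the 4 motifs was found in the promoters of Cftr, Scnn1b, Scnn1g, Atp1b1 and Aqp1. The composition of the 2 printed windows differed: that of Slc26a4 had 50% G and C with 6 CpG dinucleotides, and that of Slc6a20a 62.3% with 25, where the median promoter had 52.7% and 7.

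Cftr (ENSMUSG00000041301, chromosome 6, 18170686 to 18322767) encodes the chloride and bicarbonate channel whose loss causes cystic fibrosis in humans. It measured 10.9, 9.33, 9.56 and 10.7 CPM in controls, 8.66, 8.62, 6.65 and 7.84 CPM after 2 weeks and 9.26, 10.02, 7.18 and 9.02 CPM after 5 weeks. All 2-week mice lay below all controls, whereas 5-week replicate 2 lay within the range of the controls. The 2-week mean was 7.94 ± 0.939 CPM and the control mean 10.1 ± 0.806 CPM (SD, n = 4 each), a log2 difference of -0.32 ± 0.12 (SE, 95% interval -0.57 to -0.07). For 5 against 0 weeks the difference was -0.18 ± 0.12, with an interval from -0.43 to 0.07. Leaving out 5-week replicate 3 moved it to -0.09. The 2-week difference was -0.28 without the 3 libraries that stood apart.

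The epithelial sodium channel, the entry step for sodium, has 3 subunits among the members. Scnn1a (ENSMUSG00000030340), which encodes the alpha subunit that mice need to clear lung liquid at birth, averaged 511 ± 28.8 CPM in controls, 495 ± 46.9 CPM in 2-week mice and 464 ± 64.6 CPM in 5-week mice (SD, n = 4). The groups overlapped, and 5-week replicate 3 at 368 CPM stood below the other 5-week mice at 487 to 503 CPM. The log2 difference between 5 and 0 weeks was -0.15 ± 0.10 (SE, 95% interval -0.37 to 0.07), and -0.04 without that replicate. Scnn1b (ENSMUSG00000030873), which encodes the beta subunit, measured 115.6, 94.4, 109.9 and 101 CPM in controls, 146.5, 133.7, 123.5 and 109.3 CPM after 2 weeks and 110.2, 107.4, 103.7 and 100.8 CPM after 5 weeks. Of the 2-week mice, 3 lay above every control and every 5-week mouse, and 2-week replicate 4 lay within both ranges.

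For Scnn1b the log2 difference was 0.28 ± 0.09 (SE, 95% interval 0.09 to 0.47) between 2 and 0 weeks and -0.27 ± 0.09 (-0.47 to -0.08) between 5 and 2 weeks, while 5 weeks stood 0.0078 ± 0.09 from the controls. Without the 3 libraries that stood apart the 2-week difference was 0.24. Scnn1g (ENSMUSG00000000216), which encodes the gamma subunit, averaged 145 ± 12.5 CPM in controls, 157 ± 17.6 CPM in 2-week mice and 143 ± 6.76 CPM in 5-week mice (SD, n = 4), with overlap of all groups. Its 2-week difference was 0.11 ± 0.09 (SE, 95% interval -0.08 to 0.30), and 0.04 when either control replicate 2 or 2-week replicate 1 was left out. Scnn1g and Scnn1b are neighbours on the plus strand of chromosome 7, at 121333702 to 121367698 and 121464261 to 121517737, with 96.6 kb between them and no other gene of the deposited table inside that gap. Several marker lists were also on the higher side at 2 weeks, when 55.1% of all tested genes were. Of the ciliated cell markers 8 of 8 were higher than in controls (median log2 difference 0.21), with a summed level of 570 to 705 CPM in 2-week mice and 524 to 683 CPM in controls. So were 6 of 6 smooth muscle markers (median 0.41), 6 of 6 cardiomyocyte markers (median 0.17) and 8 of 9 alveolar type 2 markers (median 0.04). The count was 6 of 7 for general epithelial markers (median 0.15), 6 of 8 for alveolar type 1, 5 of 7 for club cell and 6 of 8 for endothelial markers. Lists with a median below 0 were fibroblast (1 of 6 higher, median -0.14), adipocyte (0 of 6, median -1.12), leukocyte (3 of 7, median -0.21) and mesothelial markers (2 of 5, median -0.02). Their part in the Scnn1b values was not tested.

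Taken per kilobase of exon, the beta subunit message stood at 0.406 ± 0.025 of the alpha message in 2-week mice and at 0.323 ± 0.025 in controls (SD, n = 4 each). This ratio lay between 0.373 and 0.434 in 2-week mice and between 0.296 and 0.350 in controls, without overlap. In 5-week mice it ranged from 0.325 to 0.443 and overlapped with both. The gamma message, by the same measure, stood at 0.438 ± 0.0212 of the alpha message in 2-week mice and 0.392 ± 0.027 in controls, with overlap. These ratios were chosen after the values were seen and were not tested.

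Atp1b1 (ENSMUSG00000026576, chromosome 1, 164264678 to 164285924, minus strand) encodes the beta subunit that brings the sodium-potassium pump to the cell surface. It measured 518, 451, 489 and 492 CPM in controls, 524, 455, 459 and 378 CPM after 2 weeks and 413, 447, 379 and 399.7 CPM after 5 weeks. All 5-week mice lay below all controls, by a narrow margin of 447 against 451 CPM, and the 2-week mice spanned both. The 5-week mean was 409.9 ± 28.5 CPM and the control mean 488 ± 27.6 CPM (SD, n = 4 each), a log2 difference of -0.25 ± 0.09 (SE, 95% interval -0.45 to -0.05). It was -0.25 without the 3 libraries that stood apart. Slc12a2, which encodes the cotransporter that loads sodium, potassium and chloride from the blood side, measured 126 to 155 CPM over the 12 mice, with the smallest ratio of highest to lowest among the members, at 1.23. Its differences from the controls were 0.07 ± 0.07 at 2 weeks and 0.01 ± 0.07 at 5 weeks (log2, SE), with intervals from -0.08 to 0.22 and from -0.14 to 0.16.

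Aqp1 (ENSMUSG00000004655, chromosome 6, 55313417 to 55325540) encodes a water channel of the lung's capillary endothelium and of red cells. Controls measured 963, 917, 988 and 1118 CPM, 2-week mice 960.2, 960.2, 870.3 and 832 CPM and 5-week mice 1026, 913, 856 and 983 CPM. The groups overlapped throughout, with log2 differences of -0.14 ± 0.09 at 2 weeks and -0.08 ± 0.09 at 5 weeks (SE) and intervals from -0.33 to 0.05 and from -0.27 to 0.11. The 2-week difference was -0.08 without control replicate 4. Red cell markers were higher on average at 5 weeks, with 5 of 5 tested markers higher, while at 2 weeks 3 of 5 were (median log2 difference 0.0009). Their summed levels were 850.4 to 1768 CPM in controls, 736 to 1672 CPM in 2-week mice and 1028 to 11319 CPM in 5-week mice. Endothelial markers summed to 4275 to 5095 CPM in controls, 4777 to 5087 CPM in 2-week mice and 3716 to 4856 CPM in 5-week mice. Of these, 6 of 8 were higher than in controls at 2 weeks and 1 of 8 at 5 weeks. The part of red cells and endothelium in the level of Aqp1 was not tested.

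**Figure D2:**
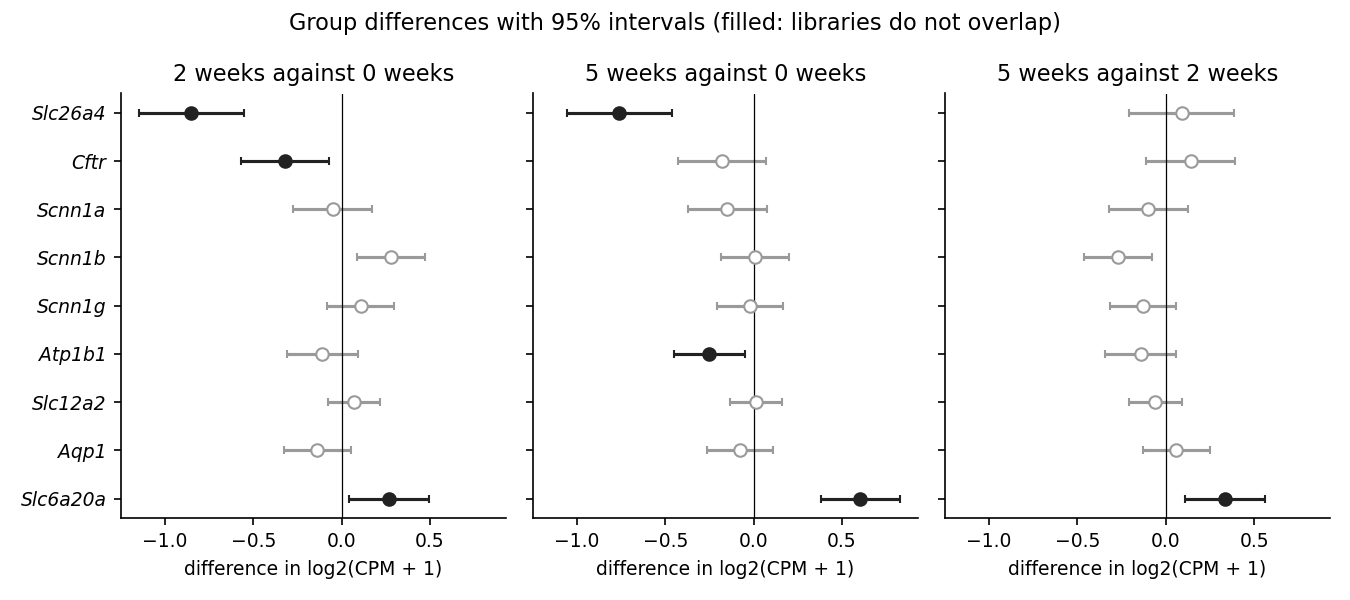
Difference in log2(CPM + 1) between groups for the 9 genes, with 95% intervals from the fit across all genes; filled points mark genes whose libraries do not overlap between the groups. Slc26a4 lies at -0.85 and -0.76 against the controls, and Slc6a20a at 0.27 and 0.60.

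Set against each other per kilobase of exon, the members spanned a wide range of levels. Aqp1 was highest at 361 ± 30.1 CPM per kb over the 12 mice (SD), ahead of Atp1b1 at 146 ± 16.3 and Scnn1a at 119 ± 11.8 CPM per kb, and the ranges of these last 2 overlapped. Scnn1g at 49.6 ± 4.50 and Scnn1b at 42.9 ± 5.67 CPM per kb also overlapped, and Slc12a2 followed at 12.9 ± 0.753 CPM per kb. Cftr at 1.16 ± 0.168, Slc6a20a at 0.756 ± 0.187 and Slc26a4 at 0.718 ± 0.320 CPM per kb closed the order, with overlapping ranges. The order at the lower end differed between treated mice and controls. In 5-week mice Slc26a4 stood at 0.432 to 0.754 CPM per kb and Slc6a20a at 0.918 to 1.04, whereas in controls Slc26a4 stood at 1.05 to 1.25 and Slc6a20a at 0.502 to 0.603. The ratio of Slc6a20a to Slc26a4 was 0.499 ± 0.0528 in controls, 1.52 ± 0.141 in 2-week mice and 1.89 ± 0.393 in 5-week mice (SD, n = 4 each).

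**Figure D3:**
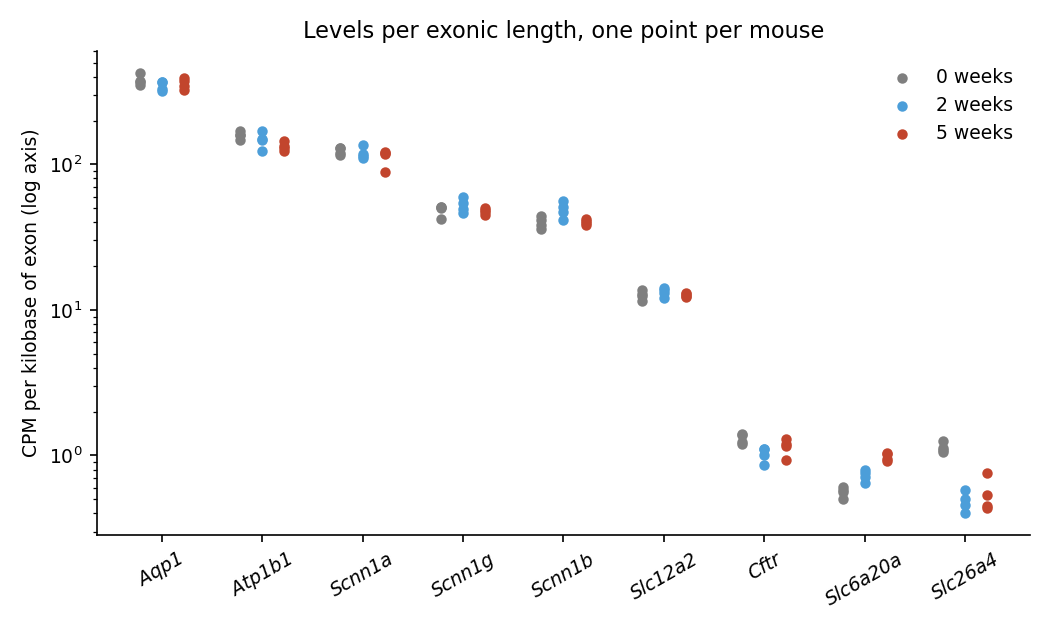
CPM per kilobase of exon on a log axis for the 9 genes in order of their mean, with a point for each mouse at 0, 2 and 5 weeks. Aqp1 averages 361 CPM per kb and Slc26a4 0.718, and the points of Slc26a4 and Slc6a20a change places between 0 and 5 weeks.

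The summed levels of each list of epithelial markers overlapped between treated mice and controls. Such sums follow their most abundant genes, such as Scgb1a1 among the club cell markers, at 24540 CPM on average. Gene by gene at 5 weeks, 9 of 9 alveolar type 2 markers (median log2 difference 0.08) and 0 of 7 club cell markers (median -0.23) were higher than in controls. So were 5 of 7 general epithelial, 6 of 8 alveolar type 1 and 5 of 8 ciliated cell markers, and 55% of all tested genes. The sum of 7 general epithelial markers was 1071 to 1394 CPM in controls, 1281 to 1514 CPM in 2-week mice and 1256 to 1311 CPM in 5-week mice. That of 8 alveolar type 1 markers was 5829 to 6720 CPM in controls, 6196 to 7236 CPM in 2-week mice and 6613 to 6930 CPM in 5-week mice. That of 9 alveolar type 2 markers was 19396 to 23256 CPM in controls, 21267 to 24780 CPM in 2-week mice and 22573 to 28060 CPM in 5-week mice. Club cell markers varied widely within groups, from 25985 to 39537 CPM in controls, from 26579 to 39761 CPM in 2-week mice and from 23992 to 31738 CPM in 5-week mice. Of the ionocyte markers, the 4 analysed here summed to 41.6 to 56.2 CPM in controls. Their sum was 53.2 to 57.2 CPM in 2-week mice and 49.2 to 63.1 CPM in 5-week mice. Most of it was Atp6v1c2 alone, at 44.45 CPM on average, while Ascl3 was near 0 at 0.128 CPM, so the sum says little about ionocytes. Of the leukocyte markers 7 of 7 were higher at 5 weeks, with a summed level of 372 to 571 CPM in 5-week mice against 234.5 to 368 CPM in controls. At 2 weeks, when Slc6a20a was also above every control, 3 of 7 were higher, with a median log2 difference of -0.21. Their part in the level of Slc6a20a was not tested.

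Across the 12 libraries the genes whose log2 pattern was most like that of Slc26a4 by Pearson's r were Nr4a3 (r = 0.89), Osmr (r = 0.87) and Ccny (r = 0.87). For Slc6a20a they were Nrm (r = 0.90), Trim12c (r = 0.89) and Fbxo7 (r = 0.87). Among those most like Scnn1b were Acsm1 (r = 0.96) and Cep63 (r = 0.94), and Scnn1a was most like Cep170b (r = 0.97), Lmo7 (r = 0.96) and Fnbp1l (r = 0.93). The nearest to Cftr was Adarb1 (r = 0.94), to Scnn1g Spop (r = 0.91), to Atp1b1 Cds1 (r = 0.91), to Slc12a2 Ccp110 (r = 0.90) and to Aqp1 Ppme1 (r = 0.94). These are among the highest of 14081 genes searched over 12 libraries that share groups, and they are a description only.

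Among the members, Scnn1b and Scnn1g varied most alike over the 12 libraries (r = 0.84), and after the group means were removed their r was 0.86. By that measure Atp1b1 followed Scnn1b (r = 0.86), Scnn1g (r = 0.78) and Slc12a2 (r = 0.74), and Scnn1a followed Cftr (r = 0.82). Slc26a4 and Slc6a20a ran opposite over the 12 libraries (r = -0.65), but their deviations within groups did not (r = 0.52). In all, 31 of the 36 pairs of members had a positive r within groups. The share among pairs of other genes was not computed, so nothing is read from this count. The points share library depth and the makeup of each piece of lung.

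Other transport genes were taken from a list of 92 in 9 roles, of which 88 were in the table and 78 were tested. None passed an adjusted p of 0.05 in limma in any comparison (0 of 78, lowest adjusted p = 0.276). For 2 against 0 weeks 9 of 78 (11.5%) had an unadjusted p under 0.05, 5 higher and 4 lower, as 9.24% of all tested genes did, and 7 of 78 (8.97%) did not overlap, against 5.32% of all tested genes. For 5 against 0 weeks these counts were 5 of 78 (6.41%), 4 higher and 1 lower, against 8.63% of all genes, and 2 of 78 (2.56%), against 5.01% of all genes. For 5 against 2 weeks they were 9 of 78 (11.5%), 5 higher and 4 lower, against 10.9% of all genes, and 8 of 78 (10.3%), against 4.94%. The median log2 difference of the list was 0.01 at 2 weeks, -0.02 at 5 weeks and -0.02 between 5 and 2 weeks, and that of all tested genes 0.02, 0.02 and 0.0007.

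The most abundant gene of 8 of the roles gives the scale of these differences. Wnk1, a kinase that controls cation chloride cotransport, stood at -0.07 ± 0.11 after 2 weeks and -0.12 ± 0.11 after 5 weeks (log2 difference from the controls, SE). Aqp5, the water channel of alveolar type 1 cells, stood at 0.20 ± 0.08 and 0.18 ± 0.08, with means of 332 CPM in controls, 379 CPM in 2-week mice and 373 CPM in 5-week mice and limma adjusted p = 0.504 and 0.581. Slc34a2, the phosphate carrier of alveolar type 2 cells, stood at 0.0027 ± 0.13 and 0.05 ± 0.13.

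Cldn18, an alveolar tight junction protein gene, stood at -0.05 ± 0.07 at 2 weeks and 0.10 ± 0.07 at 5 weeks (log2 difference from the controls, SE), and Car4, a carbonic anhydrase of capillary endothelium, at 0.15 ± 0.10 and 0.20 ± 0.10. Slc9a3r2, a scaffold for sodium-proton exchangers, stood at -0.20 ± 0.08 and -0.13 ± 0.08, with every 2-week mouse below every control (limma adjusted p = 0.448 for 2 against 0 weeks). Ano6, a calcium-activated scramblase and channel, stood at -0.17 ± 0.12 and -0.26 ± 0.12, with no overlap at 2 weeks (limma adjusted p = 0.669). Kcnj15, an inward rectifier potassium channel, stood at -0.33 ± 0.14 and -0.16 ± 0.14.

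Some of these 5-week values rested on 5-week replicate 3. Without it the difference from the controls was 0.01 for Wnk1, where that replicate measured 322 CPM and the other 5-week mice 460.02 to 465 CPM. For Ano6 it was -0.0997, for Kcnj15 -0.0054, for Car4 0.13 and for Slc9a3r2 -0.08. For Car4 the 2-week difference was 0.09 without control replicate 2.

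Between 5 and 2 weeks the pump regulator genes Fxyd3 and Fxyd5 lay far from 0, and they are named here after their values were seen. Fxyd3 averaged 7.55 ± 0.631 CPM in 5-week mice and 10.9 ± 2.10 CPM in 2-week mice (SD, n = 4 each), a log2 difference of -0.47 ± 0.12 (SE, limma adjusted p = 0.288), and its 5-week mice also lay below every control. Fxyd5 averaged 69.9 ± 10.03 CPM in 5-week mice and 48.4 ± 9.46 CPM in 2-week mice, at 0.53 ± 0.14 (limma adjusted p = 0.288). Without 2-week replicate 4, both passed among 386 genes in all, at limma adjusted p = 0.0386 for Fxyd3 and 0.0193 for Fxyd5. Of the 12 libraries left out singly, no other gave any gene past the threshold in this comparison. For Fxyd5 that replicate held the highest 2-week value, 62.6 CPM, so this pass is no separate support.

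**Figure D4:**
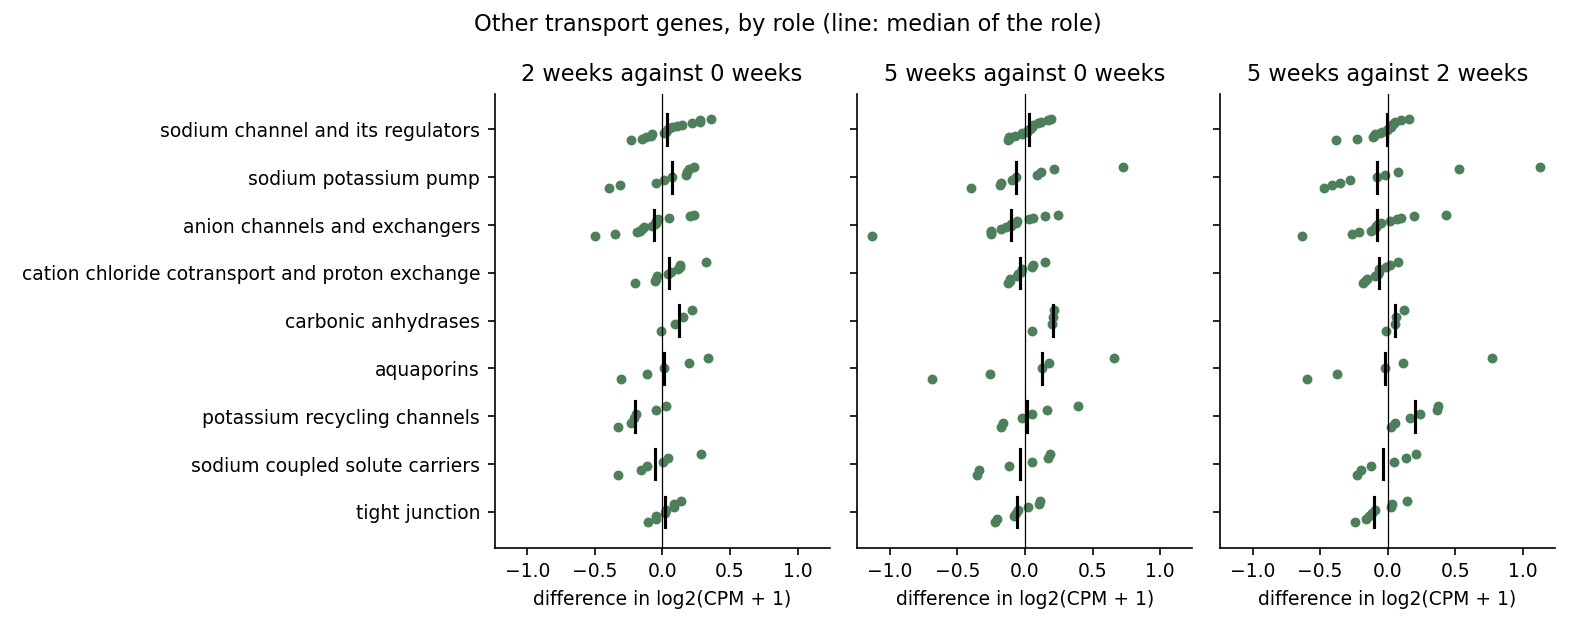
Difference in log2(CPM + 1) of the 78 other transport genes tested, by role, in the 3 comparisons; each point is a gene and the black line is the median of the role. The medians of the whole list are 0.01, -0.02 and -0.02, close to 0 in each comparison.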

How the data were processed

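Whole-lung RNA libraries of 12 mice were analysed from 1 table in which the authors deposited CPM. The values show that 0.0001 was added to each cell. Per the submitters' processing notes, TopHat2 and Partek were used with mm10, and the notes hold no version, annotation or strandedness. Of 23073 genes matched by identifier to GENCODE M21 (GRCm38), 501 shared the start and 22662 the length, so positions are printed as the table gives them, in a build it does not name, with the stop minus 1 as the end. Exon lengths are unions of GENCODE M21 exons. Promoters come from RefSeq in GRCm38.p6, which held 7 of the 9 members.

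Of the values worth 1 to 20 reads, 87.2% to 87.9% came within 0.1 of a whole number of reads, which is too few to recover reads, so no count model was fitted and no counting interval is given. Limma 3.58.1 in R 4.3.3 fitted group means over all 12 libraries to log2(CPM + 1) of the 15562 genes averaging 1 CPM or more, with a variance trend and two-sided tests. Benjamini-Hochberg adjustment over all these genes was used, and calls needed an adjusted p under 0.05. The script was tested on simulated counts. Python 3.11.15, pandas 2.3.3 and matplotlib 3.10.9 served for tallies and plots.

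The members and lists were chosen with earlier results of these data known. The rule names all members, wider-list genes past the threshold or, in a role without any, its most abundant gene, and the 3 tested genes most like each member, predicted genes left out. A few genes this rule names are not reported here. Replicate numbers follow the sample order and pair nothing. Each library is labelled as a separate mouse.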

Additional observations from a re-analysis of the deposited data

Results flagged for a closer look

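Among 54 groups of 4 mice (18 named genes), 5 had a mouse far from the other 3, where chance gives about 1 in 20. Of these, 4 were in 5-week replicate 3, which stood apart on the principal components. In it Scnn1a measured 368 CPM, against 487 to 503 CPM in the other 5-week mice. Wnk1 measured 322 CPM there, against 460.02 to 465 CPM, and Ano6 100.7 CPM, against 150.4 to 161 CPM. Aqp5 was the one that stood higher, at 387 CPM against 366 to 369.7 CPM. In control replicate 2, Scnn1g measured 127 CPM, against 149.6 to 153 CPM in the other controls.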

How the results depend on the processing

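The 27 differences of the members (9 genes in 3 comparisons) were recomputed under pseudocounts of 0.1 and 5, no filter, a filter of 10 CPM, median-of-ratios scaling, only the groups compared, each library left out, and the 3 libraries that stand apart left out. Of 504 values, 489 had the sign of the reported value. Only 1 passed the threshold, that of Slc26a4 for 2 against 0 weeks without 5-week replicate 3. Nothing is read from it, since the members were picked with such results known. The filter of 10 CPM leaves out Slc26a4, Cftr and Slc6a20a. With each library left out, Slc26a4 stood between -0.91 and -0.80 for 2 against 0 weeks and between -0.87 and -0.70 for 5 against 0 weeks, and Slc6a20a between 0.23 and 0.31 and between 0.57 and 0.63. For the other transport genes these alternatives were added after the values were seen. Slc34a2, near 0, stood at -0.015 at 2 weeks under median-of-ratios scaling, and with each library left out between -0.085 and 0.082 at 2 weeks and between -0.040 and 0.11 at 5 weeks. Wnk1 stood at 5 weeks between -0.17 and 0.012 with each library left out, and at 0.026 without the 3 libraries that stand apart. No paired analysis was possible because the groups share no replicate numbers from the labels.

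The count of genes past the threshold was 0 in all 3 comparisons under each of the 7 settings other than leaving out a single library. With single libraries left out it ranged from 0 to 24 for 2 against 0 weeks, from 0 to 1 for 5 against 0 weeks and from 0 to 386 for 5 against 2 weeks. It was 24 without 5-week replicate 3, which enters 2 against 0 weeks only through the shared estimate of the spread, 386 without 2-week replicate 4 and 1 without control replicate 1, for 2 against 0 and for 5 against 0 weeks. For the list of 78 other transport genes the range was 0 to 0, 0 to 0 and 0 to 3, with 3 without 2-week replicate 4; the cause was not tested. Depth limits Slc26a4 and Slc6a20a most, at 39 to 145 reads a library.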
